A study of Mus musculus with 6 samples.

Results

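Slit ligands, Robo receptors and their srGAP effectors were examined in whole pancreas of Hox6 null and control mouse embryos. The members were Slit1, Slit2 and Slit3, Robo1, Robo2 and Robo3, and Srgap1, Srgap2 and Srgap3, and each was followed through every probe set that the platform annotation gives to that gene alone. All 9 genes were found, in 20 of 45037 probe sets, and 0 probe sets named a member together with another gene. The choice used gene names and no measured value, although it was made with earlier results of these data known.

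The tissue was pancreas dissected at E12.5, the stage at which its epithelium branches. One group was Hox6 null embryos on the Bl6 background (3 arrays), in which the labels give neither the alleles nor the disrupted exons of the Hox6 paralogues Hoxa6, Hoxb6 and Hoxc6. The other was control embryos, labelled wild type on the same background (3 arrays). RNA was amplified from 10 ng of total RNA, and each biological replicate had 1 array. The labels do not say how many embryos, of which sex or litter, made up a sample, so p-values reflect no more than the variation among these 6 samples. Both groups are whole organs, so a lower signal from fewer cells of a type and one from less RNA per cell cannot be told apart.

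Slit proteins are secreted guidance cues, and Robo proteins are the transmembrane immunoglobulin-type receptors that bind them, usually giving repulsion or a change of adhesion. The srGAPs bind the cytoplasmic part of Robo through an SH3 domain and act on the cell membrane through an F-BAR domain. In the mouse, Robo1 and Robo2 are known to act in pancreatic progenitors, where they help to keep pancreatic identity, and in islet cells, where they are needed for islet architecture, while Slit ligands come largely from the surrounding mesenchyme. Robo4, the endothelial receptor, was kept apart.

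Values are log2 expression per probe set after RMA, the standard background correction, quantile normalization and summary for these arrays. A difference of 1 is therefore a doubling. Different probe sets bind with different strength, so a level is compared between arrays and never between genes. The pancreatic factor Pdx1 read 9.97, 9.63 and 8.78 in Hox6 null arrays and 8.62, 8.24 and 8.27 in control arrays, with a log2 level well above the median of 5.99 over all probe sets. Hoxb6 ranged over 8.25 to 8.91 in Hox6 null and 8.78 to 9.36 in control arrays (difference -0.42, limma adjusted p = 0.393), and the 3 probe sets of Hoxc6 differed by +0.13 to +0.73; Hoxa6 was not analysed here. Where the deleted parts lie relative to these probe sets is not given in the sources used here, so these values check nothing. Null arrays correlated at 0.980 to 0.987 with each other and control arrays at 0.994 to 0.995. On the first principal component, with 46.6% of the variance, null 1, null 2 and null 3 lay at 61.7, 36.0 and -14.9, against -30.0 to -22.9 for the control arrays. Where leaving out null 3 moved the difference of a member probe set by over 1.5 times or across 0, that value is given too. For other genes it is not given.

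None of the 20 probe sets passed the test over all probe sets (limma, Benjamini-Hochberg adjusted p of 0.192 to 0.943), beside 1 of all 45037, which is 0.00222%. At an unadjusted p under 0.05 there were 7 of 20 (1 higher, 6 lower in Hox6 null arrays), and the same held for 15.0% of all probe sets, 8.17% higher and 6.79% lower. Arrays of the groups did not overlap in 6 of 20 (3 higher, 3 lower), against 22.0% of all probe sets, 12.1% higher and 9.89% lower. The median change was -0.11 over the 20 and +0.04 over all probe sets. Counts over probe sets lean on Slit2, which holds 3 of the 7. With 1 probe set per gene, that with the highest mean, 3 of 9 genes (Slit2, Robo2 and Srgap1) had an unadjusted p under 0.05 against 15.9% of all 18193 genes. When the model was fitted to these 18193 probe sets alone the count was 5 of 9, with Slit1 (limma unadjusted p = 0.0488) and Srgap3 (limma unadjusted p = 0.0499) added, against 17% of all genes. With 1 probe set per gene, 3 of 9 (Slit1, Slit2 and Srgap3) had non-overlapping arrays against 23.8%. The smallest p that an exact permutation of 3 against 3 arrays allows is 0.1.

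**Figure D1:**
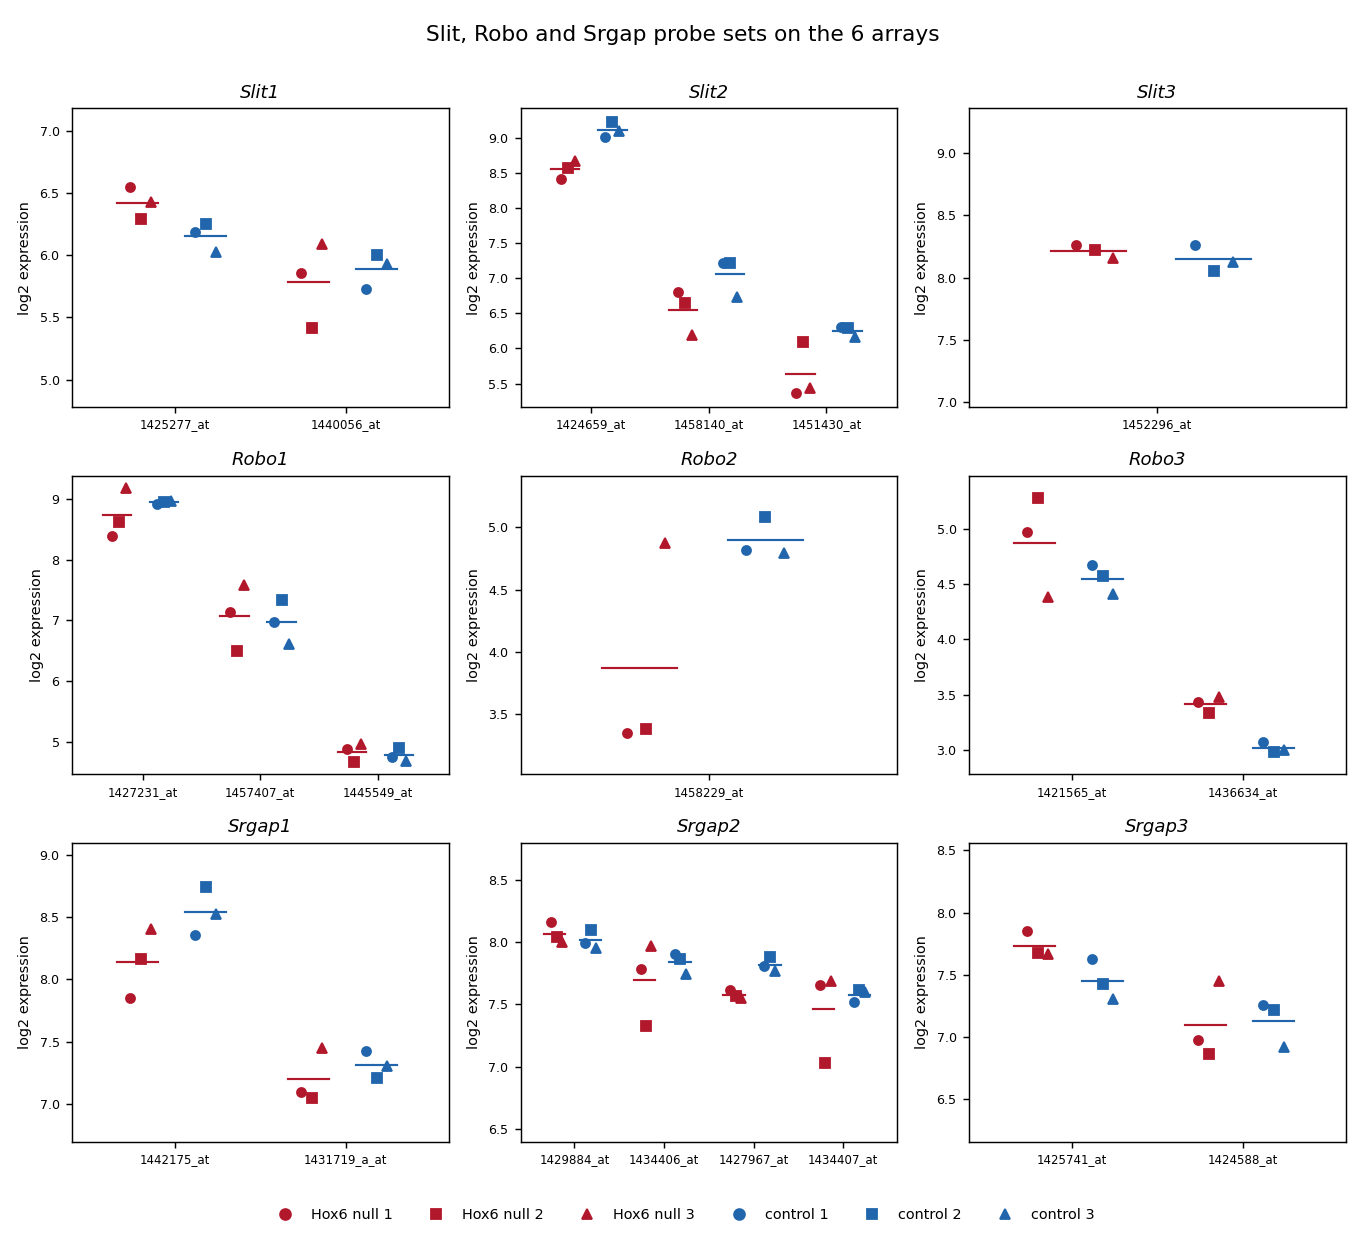
Log2 expression (vertical axes, spans differ between panels) of the 20 probe sets of the 9 genes, with Hox6 null arrays in red left of control arrays in blue, replicates by symbol and group means as lines. Slit2 1424659_at read 8.41 to 8.67 in Hox6 null and 9.01 to 9.22 in control arrays, and for Robo2 null replicate 3 (4.87) sits with the controls while null 1 (3.35) and null 2 (3.38) lie far below.

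Among the ligands, Slit2 was the gene with the lower signal. Its brightest probe set, 1424659_at, read 8.41, 8.57 and 8.67 in Hox6 null arrays and 9.01, 9.22 and 9.09 in control arrays. All 3 null arrays lay below all 3 controls, and the spread within each group was small. The means were 8.55 ± 0.13 and 9.10 ± 0.11 (SD, n = 3 each), a difference of -0.56 ± 0.12 (SE) or 1.47-fold, with a limma adjusted p of 0.192 and an unadjusted p of 0.0018. The other probe sets of Slit2 pointed the same way.

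Slit2 1451430_at, designed from the same source sequence and so no separate witness, read 5.37, 6.09 and 5.44 in Hox6 null arrays and 6.31, 6.29 and 6.16 in control arrays. The groups did not overlap, although null 2 came within a short distance of control 3. Slit2 1458140_at, from another source sequence, read 6.80, 6.65 and 6.19 in Hox6 null arrays and 7.22, 7.22 and 6.73 in control arrays, and here null 1 lay above control 3. The differences were -0.62 ± 0.20 and -0.51 ± 0.20 (SE), with limma adjusted p of 0.257 and 0.315, and without null 3 that of 1458140_at was -0.33 ± 0.18. The array that was lowest differed between the probe sets of Slit2: it was null 1 for 1424659_at and 1451430_at and null 3 for 1458140_at. Null 3 was close to the controls for Robo2 and for the mean of the epithelial markers, though not for every such marker. In all 3 Slit2 probe sets it was below the control mean, at -0.44 in 1424659_at, -0.81 in 1451430_at and -0.86 in 1458140_at.

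Slit3 showed no such difference. Its single probe set, 1452296_at, read 8.27, 8.22 and 8.16 in Hox6 null arrays and 8.27, 8.06 and 8.13 in control arrays. The arrays overlapped and lay within 0.21 of each other, the smallest span but one among the 20 probe sets. The difference was +0.06 with a 95% interval of -0.18 to +0.31 (limma adjusted p = 0.792), so a shift as large as that of Slit2 1424659_at lies outside the interval of Slit3.

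Slit1, which is best known from the nervous system, gave mixed readings. Its brighter probe set, 1425277_at, read 6.55, 6.29 and 6.42 in Hox6 null arrays and 6.18, 6.25 and 6.03 in control arrays. Null arrays were higher without overlap, null 2 by a narrow margin over control 2, and the difference was +0.27 ± 0.12 (SE, limma adjusted p = 0.346). The other, 1440056_at, had overlapping arrays and a difference of -0.10 ± 0.18 (SE, limma adjusted p = 0.810), or -0.25 without null 3 and +0.09 without null 2.

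Whether the ligand genes moved unequally was tested within arrays. The change of Slit2 minus that of Slit3 was -0.62, and minus that of Slit1 -0.82 (representative probe sets). In each pair the 3 Hox6 null arrays lay on one side of the 3 control arrays, with an exact two-sided permutation p of 0.1, the smallest the design allows (adjusted p = 0.1 over 3 pairs compared, the third being Robo2 and Robo1). These pairs were chosen after the values were seen. For both Slit pairs the outcome was fixed by the single-gene readings and adds nothing to them. Slit2 was lower and Slit1 higher without overlap, and Slit3 spanned 0.21, less than the gap between the Slit2 groups (8.67 to 9.01).

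To set Slit2, the ligand gene with the most negative change, beside Slit3, the sequences at their starts are shown, from RefSeq (GRCm38.p6), 250 bases before to 50 after the annotated start, 5′ to 3′ on the sense strand of each gene. Slit2 lies at chr5:47982905-47983204 and Slit3 at chr11:35121206-35121505. Capitals mark a TATAAA match.
Slit2: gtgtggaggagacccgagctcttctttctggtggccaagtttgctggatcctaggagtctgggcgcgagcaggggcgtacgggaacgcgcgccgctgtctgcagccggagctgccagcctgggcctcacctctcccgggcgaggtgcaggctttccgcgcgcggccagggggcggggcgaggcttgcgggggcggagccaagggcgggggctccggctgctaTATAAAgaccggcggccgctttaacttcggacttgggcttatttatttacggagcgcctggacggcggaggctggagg
Slit3: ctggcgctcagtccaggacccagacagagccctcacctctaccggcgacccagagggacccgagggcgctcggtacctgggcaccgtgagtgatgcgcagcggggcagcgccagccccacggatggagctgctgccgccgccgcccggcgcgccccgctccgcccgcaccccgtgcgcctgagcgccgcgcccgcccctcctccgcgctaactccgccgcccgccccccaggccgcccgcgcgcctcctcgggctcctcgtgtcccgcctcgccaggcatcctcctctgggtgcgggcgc
The Slit2 window holds a single TATAAA, whose first base is 28 before the start, and the Slit3 window holds none. TATAAA was looked for on both strands, after the sequences had been seen, and was found in 13.6% of 32851 promoters of this length and in 2 of 10 promoters of the members (Slit2 and Srgap3). The homeodomain core TAAT, also on both strands, was found in 58.0% of all promoters and in 6 of 10 of the members, and in neither Slit2 nor Slit3. The Hox and Pbx type motif TGATNNAT, which can overlap TAAT, was found in 8.85% of all promoters and in 1 of 10 of the members (Srgap2). A match describes these letters only, and its lack says nothing of more distant sequence. Promoters were listed for 8 of the 9 genes, 3 of the 10 for Robo2. GC content was 68.0% in the Slit2 window and 78.3% in the Slit3 window, against a median of 52.7%.

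Slit2 and Slit3 also hold a microRNA gene each, Mir218-1 and Mir218-2, on the same strand as their host, and the product miR-218 is known to be able to repress Robo1 in human cells. The mature forms are shown because both hosts give the same 5p sequence. Capitals mark the seed, bases 2 to 8 (RefSeq, GRCm38.p6).
mmu-miR-218-5p: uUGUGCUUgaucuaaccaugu
mmu-miR-218-1-3p: aAACAUGGuuccgucaagcacc
mmu-miR-218-2-3p: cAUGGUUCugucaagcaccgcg
The 5p form is 21 bases long and identical from both loci, while the 3p forms have different seeds. Mir218-1 lies within Slit2, whose 3 probe sets read lower in Hox6 null arrays, and Mir218-2 within Slit3, whose probe set did not differ detectably. The microRNAs themselves were not analysed here.

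Among the receptors, Robo2 had the largest mean difference of the 20 probe sets, and 1 array decided its size. Its single probe set, 1458229_at, read 3.35, 3.38 and 4.87 in Hox6 null arrays and 4.82, 5.08 and 4.79 in control arrays. Null 1 and null 2 lay far below every control, and null 3 lay among the controls. The means were 3.87 ± 0.87 and 4.90 ± 0.16 (SD, n = 3 each), a difference of -1.03 ± 0.39 (SE) with a limma adjusted p of 0.297.

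Without null 3 the Robo2 difference was -1.53 ± 0.13 (SE) and passed (limma adjusted p = 0.0131), and Slit2 1424659_at also passed, at -0.61 ± 0.12 (SE, limma adjusted p = 0.0450). Those were 2 of 20 probe sets, both lower, beside 4.22% of all probe sets called without null 3 (2.20% lower). Without null 1 or null 2 the Robo2 difference was -0.77 and -0.79, and neither passed. The probe set is dim in all arrays, with a mean of 4.38 against the median of 5.99 over all probe sets, and no detection call was used.

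Robo1, the other main Slit receptor of pancreatic progenitors, had 3 probe sets, none of which separated the groups. The brightest, 1427231_at, read 8.39, 8.63 and 9.18 in Hox6 null arrays and 8.92, 8.95 and 8.97 in control arrays. As for Robo2, null 1 and null 2 lay below all controls, but null 3 lay above them all. The control arrays spanned far less than the null arrays (SD 0.03 and 0.41), and the difference was -0.21 ± 0.20 (SE, limma adjusted p = 0.622). It was -0.44 ± 0.12 (SE, limma adjusted p = 0.0888) without null 3 and -0.04 without null 1. Robo1 1457407_at and 1445549_at differed by +0.10 and +0.06 (limma adjusted p of 0.893 and 0.845), and without null 3 by -0.16 and -0.005. For all 3 probe sets of Robo1 null 3 was the highest of the null arrays. The change of Robo2 minus that of Robo1 1427231_at was -0.82, again with no overlap between the groups (exact permutation p = 0.1).

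Robo3, whose mammalian form binds Slits poorly and is known from commissural axons, was higher on average. Robo3 1436634_at read 3.43, 3.33 and 3.47 in Hox6 null arrays and 3.07, 2.98 and 3.0 in control arrays. The groups did not overlap and were tight, at +0.40 ± 0.10 (SE, limma adjusted p = 0.216), but these are among the dimmest values of the family. Robo3 1421565_at read 4.97, 5.28 and 4.38 in Hox6 null arrays and 4.67, 4.57 and 4.41 in control arrays. Here null 1 and null 2 were above the controls and null 3 was below them, and the difference was +0.33 ± 0.22 (SE, limma adjusted p = 0.504). It was +0.57 ± 0.14 (SE, limma adjusted p = 0.0751) without null 3 and +0.12 without null 2.

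**Figure D2:**
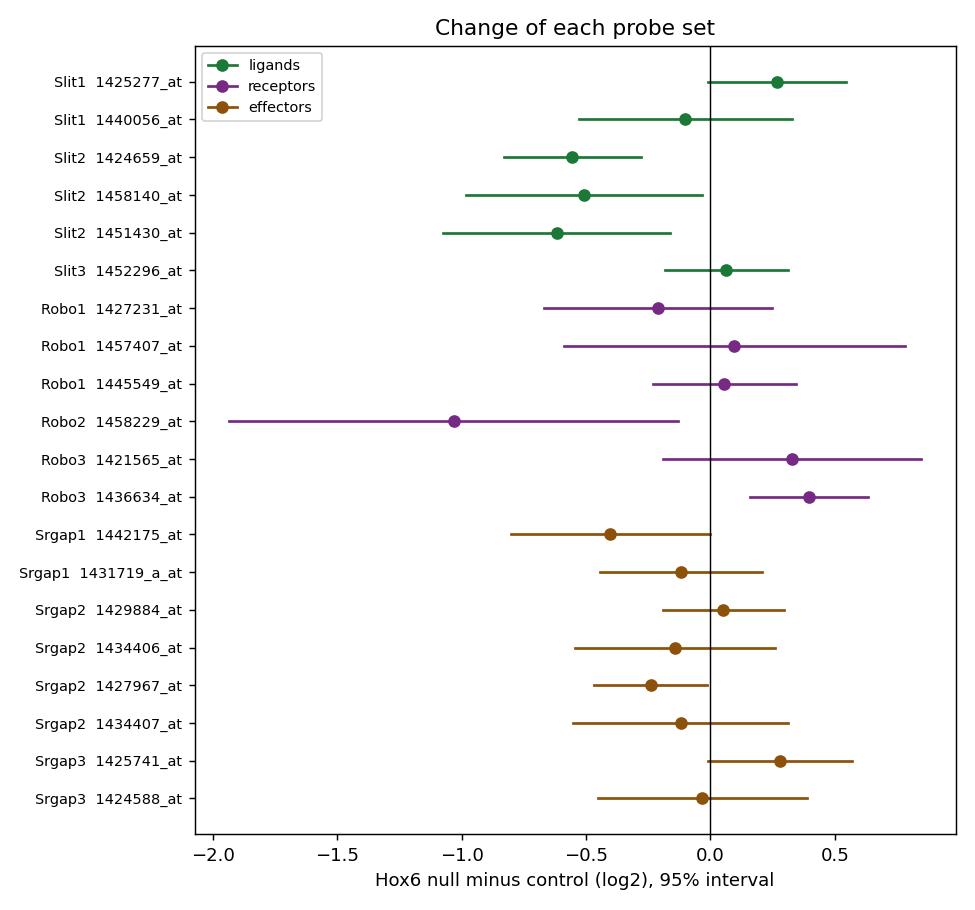
Difference of Hox6 null minus control (log2, horizontal axis) for each of the 20 probe sets, with points for estimates and lines for 95% limma intervals, coloured by role. The 3 intervals of Slit2 and that of Robo2 (-1.93 to -0.13) lie below 0, as do those of Srgap1 1442175_at and Srgap2 1427967_at (upper bounds of -0.0016 and -0.01), and that of Robo3 1436634_at (+0.16 to +0.63) lies above it, all before adjustment over probe sets.

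The effectors had smaller differences. Srgap1 1442175_at read 7.85, 8.16 and 8.40 in Hox6 null arrays and 8.35, 8.75 and 8.52 in control arrays. Null 1 and null 2 were below all controls, null 3 was just above control 1, and the difference was -0.40 ± 0.17 (SE, limma adjusted p = 0.334). The other probe set of Srgap1, 1431719_a_at, differed by -0.12 ± 0.14 (SE, limma adjusted p = 0.698), and null 1 and null 2 were again below all controls (-0.24 without null 3).

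Srgap2, known for its part in neuronal migration and spine maturation, had 4 probe sets with differences from -0.24 to +0.05. In 1427967_at the arrays read 7.62, 7.57 and 7.55 in Hox6 null and 7.81, 7.88 and 7.77 in control samples. The groups did not overlap, at -0.24 ± 0.10 (SE, limma adjusted p = 0.317). The brightest probe set of Srgap2, 1429884_at, differed by +0.05 ± 0.10 (SE) with overlapping arrays, or by +0.08 without null 3. In 1434406_at and 1434407_at, which share a source sequence, null 2 (7.33 and 7.03) lay below all other arrays, and the differences were -0.14 and -0.12. They were -0.28 and -0.23 without null 3, and +0.04 and +0.10 without null 2.

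Srgap3, also called WRP, which links to the WAVE complex, gave opposite signs. Srgap3 1425741_at read 7.85, 7.68 and 7.67 in Hox6 null arrays and 7.63, 7.42 and 7.31 in control arrays. Null arrays were higher without overlap, by a narrow margin over control 1, with a difference of +0.28 ± 0.12 (SE, limma adjusted p = 0.346). In Srgap3 1424588_at the arrays overlapped and the difference was -0.03 ± 0.18 (SE), or -0.21 without null 3.

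The levels of cell type markers differed between the arrays too. In null 1, null 2 and null 3 the mean log2 level of 19 epithelial markers was 9.32, 9.12 and 8.35, against 8.26 to 8.34 in control arrays. That of 18 mesenchymal markers was 8.71, 8.90 and 8.97 in Hox6 null arrays, against 9.33 to 9.38 in control arrays. That of 11 mesothelial markers was 6.08, 6.16 and 6.77 in Hox6 null arrays, against 7.07 to 7.29 in control arrays. The 16 endothelial markers ranged over 7.67 to 8.08 in Hox6 null and 8.36 to 8.45 in control arrays, and the 14 macrophage markers over 7.42 to 7.95 in Hox6 null and 8.36 to 8.41 in control arrays. These 4 lists were thus lower in each null array than in any control array. The 13 markers of neural crest, glia and neurons ranged over 6.67 to 6.83 in Hox6 null and 6.44 to 6.59 in control arrays. The neural and epithelial means were thus higher in each null array than in any control array, the epithelial mean of null 3 by a narrow margin. By single markers, 17 of 18 mesenchymal, 9 of 11 mesothelial, 16 of 16 endothelial and 14 of 14 macrophage genes had a negative difference, 18 of 19 epithelial and 10 of 13 neural ones a positive one, 0 of them past the adjusted threshold, and no marker had a value of 0. Robo2 and the brightest probe sets of Robo1 and Srgap1 were lowest in null 1 and next lowest in null 2, the arrays in which the epithelial markers were highest. The same order held for Slit2 1424659_at and for the mesenchymal, mesothelial, endothelial and macrophage means, so it was not particular to these probe sets. Slit2 1424659_at and 1451430_at were below every control in all 3 null arrays, but 1458140_at was not. The mesenchymal, mesothelial, endothelial and macrophage means were so too. Of the 18 mesenchymal markers, 11 had non-overlapping arrays, all lower in Hox6 null, beside 23.8% of all genes in either direction. So did 7 of 11 mesothelial, 12 of 16 endothelial and 12 of 14 macrophage markers, all lower. Without overlap, 7 of 19 epithelial markers were higher, and of the 13 neural ones 3 were higher and 1 lower. When the mean epithelial level was added to the fit, the difference of Robo2 was +0.04 ± 0.18 (SE), that of Robo1 1427231_at +0.29 ± 0.14, that of Srgap1 1442175_at -0.07 ± 0.19, that of Robo3 1421565_at -0.17 ± 0.22, and those of Slit2 -0.40 ± 0.15, -0.91 ± 0.22 and -0.74 ± 0.29 in 1424659_at, 1458140_at and 1451430_at (limma adjusted p of 0.271 to 0.966 for these 7). Of the 20 probe sets, 10 kept their sign in this fit. Among the null arrays only null 3 (8.35) had an epithelial level close to that of the controls. The genotype term of this fit therefore rests mainly on null 3 against the controls. With the level so tied to genotype, the fit cannot separate them. The part of the mesenchymal, mesothelial, endothelial and macrophage levels in the Slit2 difference was not tested.

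**Figure D3:**
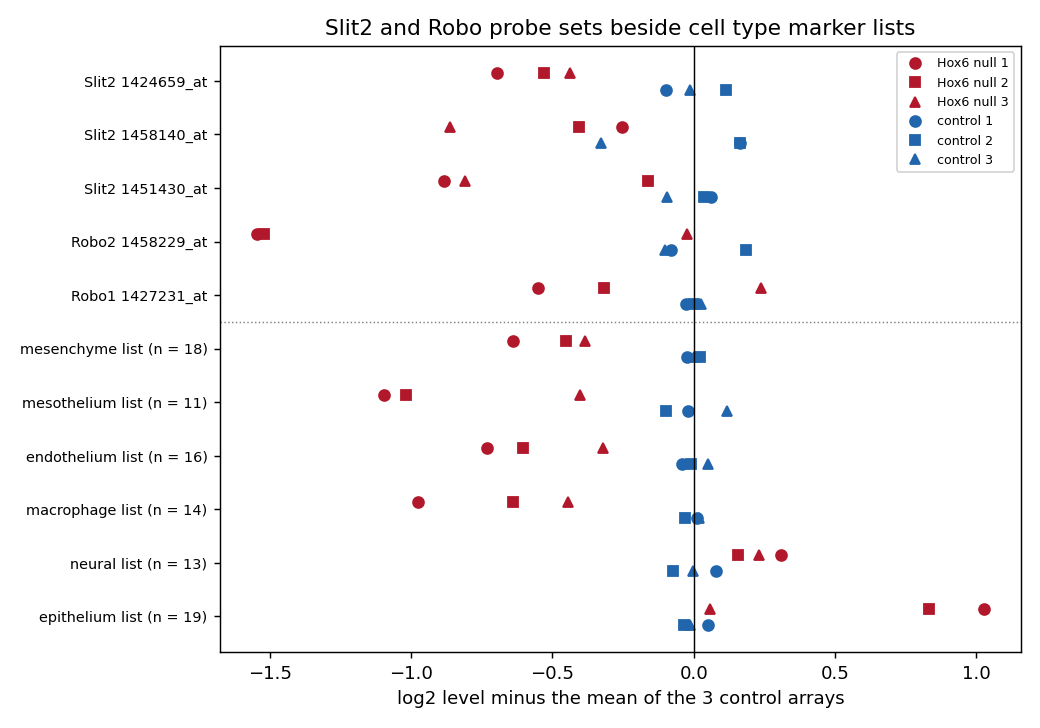
Log2 level of each array minus the mean of the 3 control arrays (horizontal axis) for Slit2, Robo2 and Robo1 probe sets (upper rows) and for the mean of each marker list (lower rows), Hox6 null in red above control in blue, replicates by symbol. Null 1 and null 2 lie apart from null 3 for Robo2 (-1.55, -1.52 and -0.02) and the mesothelial list, where they are lower. They also lie apart for the epithelial list, where they are higher. All 3 null arrays are below 0 for Slit2 and for the mesenchymal, mesothelial, endothelial and macrophage lists.

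Other genes, of the pathway or linked to it, were taken from a list of 43, of which 41 were measured. Besides co-receptors, modulators and cytoskeletal partners it held Ntn1, Cxcl12, Cxcr4, Ctnnb1, Cdh2, Yap1 and Tead1 to Tead4. None passed over all probe sets (limma adjusted p of 0.271 or more), beside 0.00550% of all genes. At an unadjusted p under 0.05 there were 7 of 41, 2 higher and 5 lower, beside 15.9% of all genes, 8.18% higher and 7.77% lower, and 12 of 41 had non-overlapping arrays, beside 23.8%. The list median was -0.02, beside +0.03 over all genes. Ntn1, the gene of the guidance cue netrin-1, read 6.27, 5.97 and 7.33 in Hox6 null arrays and 5.61, 5.74 and 5.28 in control arrays, with null 3 far above the rest (+0.98 ± 0.33, SE, limma adjusted p = 0.271). Ndfip2, an adaptor for Nedd4-type ubiquitin ligases, differed by +0.42 ± 0.15, and the kinase gene Abl2 and the adaptor gene Nck1 by -0.42 ± 0.15 and -0.25 ± 0.11 (SE), all without overlap and with limma adjusted p of 0.280 to 0.333. Robo4 read 6.69, 6.40 and 7.20 in Hox6 null arrays and 7.14, 7.21 and 7.67 in control arrays. Null 3 overlapped the controls there, and the difference was -0.58 ± 0.23 (SE, limma adjusted p = 0.315).

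Genes with the array pattern most like that of Slit2 and of Robo2, the ligand and the receptor of widest range, were found by the root mean square difference between mean-centred log2 values over the 6 arrays, among 18184 other genes. For Slit2 1424659_at, which spanned 0.81, they were the semaphorin gene Sema6d (0.038), the thrombin receptor gene F2r (0.046) and the calponin gene Cnn2 (0.057). Sema6d read 7.56, 7.72 and 7.80 in Hox6 null arrays and 8.17, 8.47 and 8.27 in control arrays. For Robo2, which spanned 1.73, they were Nkain2 (0.16), the Hedgehog-responsive factor gene Gli2 (0.17) and the peroxisomal transporter gene Abcd2 (0.17). Gli2 read 7.75, 8.05 and 9.21 in Hox6 null arrays and 9.53, 9.33 and 9.28 in control arrays, with null 3 close to the controls as for Robo2. With 6 arrays and so many genes, close matches are a description only.

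**Figure D4:**
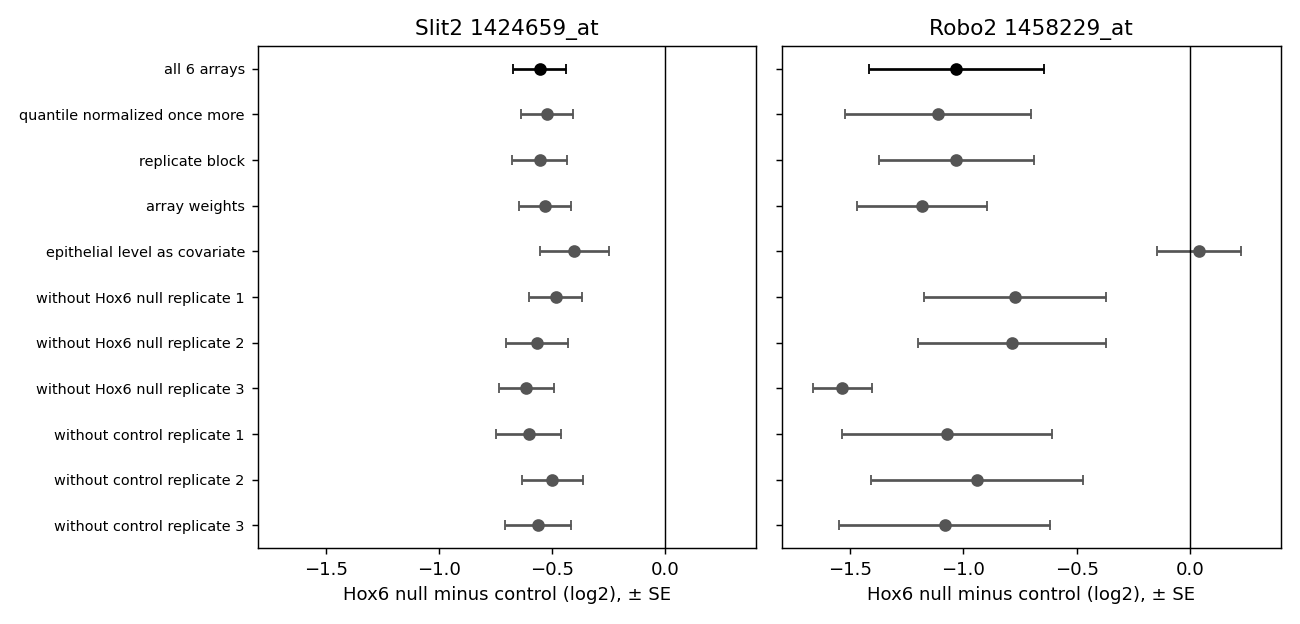
Difference of Hox6 null minus control (log2, horizontal axis, bars for ± SE) of Slit2 1424659_at (left) and Robo2 1458229_at (right) with all 6 arrays and under alternatives. Slit2 stays between -0.61 and -0.40, while Robo2 spans -1.53 without null 3 to +0.04 with the epithelial level as a covariate.

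The plot of the alternatives shows how unequally both genes depend on single arrays. Slit2 1424659_at kept a negative difference in each setting that was run, between -0.61 and -0.40, with limma adjusted p of 0.0450 to 0.570; where an array was left out, its non-overlapping arrays fix that sign in advance. The Robo2 difference ranged over -1.53 to +0.04, with limma adjusted p of 0.0131 to 0.966.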

How the data were processed

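Expression was measured on 1 array per sample in 3 Hox6 null and 3 control samples of whole mouse pancreas. The deposited values are log2 expression per probe set, and RMA, affy and limma are named without versions, per the submitters' processing notes; quantile normalization makes values relative to the other arrays. The table holds 45101 probe sets with 0 missing values; 64 array controls were left out. Array medians were 5.97 to 6.02, and array pairs shared 53 to 166 values exactly, and no columns were alike. The number of arrays limits the precision. Gene names come from the platform annotation, in which 34945 probe sets had 1 symbol. No build is given for the arrays; the RefSeq sequences are of GRCm38.p6.

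Genotype was fitted with limma 3.58.1 (lmFit and eBayes, R 4.3.3) over all 45037 probe sets, with two-sided p-values adjusted by Benjamini-Hochberg and called at 0.05. Members and lists were chosen with earlier results of these data known. Named genes were all members with all probe sets, Robo4, up to 6 pathway genes with non-overlapping arrays and the smallest unadjusted p under 0.05, and the 3 genes most like the widest Slit and Robo representative. Same-numbered null and control arrays had deviations that correlated at 0.14, 0.005 and 0.06, although 5 of 6 arrays correlated best with the one of their own number. The labels do not call the numbers pairs, so they were not taken as pairs. A fit with the number as a block is given below. Alternatives covered filter, normalization, variance prior, array weights, block, unit of test, epithelial covariate and each array left out.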

Additional observations from a re-analysis of the deposited data

How the results depend on the processing

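The count of 0 of 20 probe sets past the adjusted threshold (limma; 7 at an unadjusted p under 0.05) held in each planned setting except without null 3, where it was 2; it was 0 to 2 over the arrays left out. The count at an unadjusted p under 0.05 was 3 to 7 with 1 array left out, beside 8.58% to 24.8% of all probe sets (3 without control 2, beside 10%; 4 without control 3, beside 8.58%; 4 without null 2, beside 12.6%), 4 with the epithelial covariate (beside 10.6%), 5 of 9 genes with 1 probe set per gene (beside 17%) and 3 of 9 genes with the mean of all probe sets of each gene. The count with non-overlapping arrays was 7 to 11 with 1 array left out, beside 28.7% to 43.6% of all probe sets (11 without null 3, beside 43.6%). It was 3 of 9 genes with 1 probe set per gene (beside 23.8%) and 2 of 9 genes with the mean of all probe sets. Fewer genes than probe sets enter those counts. For the mean of all probe sets neither count has a share over all genes beside it, so these counts cannot be set against a background. Robo2 1458229_at went to +0.0416 ± 0.18 (SE, limma adjusted p = 0.966) with the epithelial covariate, which cannot be told from 0. With the replicate number as a block (replicate block) the counts were 0 past the adjusted threshold and 6 at an unadjusted p under 0.05, beside 14.7% of all probe sets. Slit2 1424659_at stood at -0.56 (limma adjusted p = 0.229) and Robo2 at -1.03 (limma adjusted p = 0.286). The block changed no member's call at the adjusted threshold, while Srgap2 1427967_at no longer had an unadjusted p under 0.05 (limma unadjusted p = 0.0847). The arrays share only a number, and 5 of 6 arrays correlated best with the one of their own number. The unequal changes of Slit2 and Slit3 (-0.72 to -0.52), Slit2 and Slit1 (-0.90 to -0.69) and Robo2 and Robo1 (-1.10 to -0.63) kept their sign after repeated quantile normalization and, as arrays that do not overlap must, without any 1 array, alternatives chosen after seeing the data. The stricter filter kept 14 of the 20 probe sets and none of Robo2 and Robo3. Dim signal limits Robo2 and Robo3, and causes of these shifts were not tested.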
